A study of Mus musculus with 21 samples.

Results

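Brain vessels are described here through 39 genes out of the 21872 symbols measured: genes of endothelial cells, of pericytes and of the basement membrane that both cell types share. They were chosen by name, as markers of these cells, with earlier results of the same libraries known, in which Kdr, Vwf and Nid2 stood near the top of the embryonic comparison. The embryonic differences are therefore given as a description, with nothing rested on them. RNA of mouse brain was sequenced from animals given water (control) or trientine (TETA), a drug that binds copper, a condition the labels call copper-deficient. There were 6 control and 6 TETA libraries at embryonic day 18.5 (E18.5), and 5 control and 4 TETA libraries at 7 weeks after birth. The dose, the route and the time of treatment, and whether the dam or the pup received it, are not given in the labels, nor is a strain. The extraction protocol names the prefrontal cortex of male mice at 7 weeks, while the tissue of all 21 libraries is labelled as brain, so region and sex at E18.5 were taken as not stated. Nothing says which libraries came from separate animals or litters, so every p-value measures the spread between libraries.

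Endothelial cells line the vessel, pericytes wrap around it, and the basement membrane is the sheet of laminin, collagen IV, nidogen and perlecan between them and the surrounding tissue. In the developing brain, VEGF acting on receptors of the endothelium drives sprouting, PDGF-B from the endothelium recruits pericytes that carry its receptor, and Wnt signals from neural cells turn on the genes of the blood-brain barrier. Barrier endothelium is sealed by tight junctions, carries selective transporters and holds vesicle traffic low. The 39 genes were sorted by role into 11 barrier genes, 14 angiogenic genes, 6 other endothelial markers, 5 pericyte genes and 3 basement membrane genes. In bulk tissue, fewer cells of a type and less RNA per cell cannot be told apart.

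Promoters are shown for Kdr, which encodes a main VEGF receptor, and Nid1, which encodes nidogen, because the 2 genes lie together in the comparison of the stages below. RefSeq (GRCm38.p6) start sites were found for 24 of the 39 genes, with 32 promoters between them. The window searched was the 250 bases before each start, on both strands. The letters CCGGAA, a core that ETS family factors such as Ets1 and Erg can bind, were present in 3 of these promoters (9.38%), against 12.03% of all 32851 promoters. Core letters bound by hypoxia factors were found as ACGTG in 3.12% against 16.6%, and as GCGTG in 28.1% against 28.2%. The Kdr stretch is chr5:75978459-75978705 on the minus strand and the Nid1 stretch is chr13:13437352-13437550 on the plus strand, each 5′ to 3′ along the gene and ending where the annotated gene starts. Capitals mark CCGGAA or its reverse complement.
Kdr: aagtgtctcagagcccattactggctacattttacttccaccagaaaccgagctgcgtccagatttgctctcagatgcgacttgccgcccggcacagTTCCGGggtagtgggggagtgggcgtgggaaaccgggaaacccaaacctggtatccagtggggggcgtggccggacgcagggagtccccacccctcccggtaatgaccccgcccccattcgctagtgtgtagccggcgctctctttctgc
Nid1: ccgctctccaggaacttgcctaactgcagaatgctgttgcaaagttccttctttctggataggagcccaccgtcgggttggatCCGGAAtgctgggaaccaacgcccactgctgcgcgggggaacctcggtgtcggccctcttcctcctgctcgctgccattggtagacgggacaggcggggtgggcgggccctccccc

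Each stretch held the ETS core once, and the Kdr stretch also held GCGTG at 2 places. A match is a stretch of letters and no measured binding. Nid2, Lama4 and Pdgfb, which are followed with Kdr and Nid1 below, had no entry among these promoters. In GENCODE M21 (GRCm38) Kdr spans chr5:75932827-75978458, Nid1 chr13:13437551-13512269, Nid2 chr14:19751265-19811787, Lama4 chr10:38965515-39110188, Pdgfb chr15:79995874-80014977, Flt1 chr5:147561604-147726011 and Cd34 chr1:194938819-194961279. All 7 are annotated as protein-coding, and the counts are of whole genes.

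The E18.5 libraries held 14678265 to 24308555 counts each and the 7-week libraries 17838051 to 24035857. The spread between replicate libraries (biological coefficient of variation) was 5.85% at E18.5 and 4.55% at 7 weeks. In the E18.5 table, 1940 genes at 0 in control library 1-1 held multiples of 11 elsewhere and were divided by 11, and 0 of the 39 genes were among them. Y-linked genes were under 1 CPM (a gene's count relative to its library's total) in 2 of 6 control and 3 of 6 TETA libraries at E18.5, and in 0 of 9 at 7 weeks. Summed levels of 12 striatal marker genes were 1186 to 1450 CPM in the 7-week control libraries and 562 to 703 CPM in the TETA libraries, without overlap, and 11 of the 12 genes were lower in TETA past the test. At E18.5 the same sum overlapped between the groups, at 723 to 808 CPM and 740 to 777 CPM. Summed markers of neurons, cortex, choroid plexus, red blood cells, astrocytes, microglia and oligodendrocytes overlapped between control and TETA at both stages. Single markers still passed at 7 weeks in edgeR, as lower for Aldoc and Aldh1l1 of astrocytes (log2 -0.21 each, with 5 of 6 astrocyte markers negative), Clic6 of choroid plexus (-1.60), Rorb of cortex (-0.18) and Map2 of neurons (-0.10), and as higher for Snap25 of neurons (0.08). Mrc1 of macrophages (-0.97, edgeR adjusted p = 0.0321) and Clic6 (-1.64, edgeR adjusted p = 0.0146) passed as differing between the stages. So did 11 of the 12 striatal genes. The part of these cell types in the vessel gene results was not tested.

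Levels are CPM scaled by TMM (a correction for library composition) within a stage, except where a scale common to both stages is named. The 39 genes summed to 783 ± 21.3 CPM in the control and 823 ± 15.1 CPM in the TETA libraries of E18.5 (SD, n = 6 and 6), and to 1081 ± 21.02 and 1114 ± 23.3 CPM at 7 weeks (SD, n = 5 and 4). Genes can be compared with each other only per length of exon. Per length, and with TMM over all 21 libraries as a scale common to both stages, the highest in E18.5 control libraries were Cldn5 (claudin-5, the main claudin of brain tight junctions) at 27.3 ± 1.42, Rgs5 (a regulator of G protein signalling in mural cells) at 22.6 ± 1.23 and Itm2a (a membrane protein of the endothelium) at 16.9 ± 1.67 CPM per kb (SD, n = 6). In 7-week control libraries the order was Itm2a at 32.1 ± 1.56, Vtn (vitronectin, which brain pericytes secrete) at 26.7 ± 1.90, Rgs5 at 22.6 ± 1.41 and Cldn5 at 16.9 ± 1.81 CPM per kb (SD, n = 5). The ranges of Vtn and Rgs5 did not meet, at 24.6 to 28.8 and 20.4 to 24.1 CPM per kb. The lowest was Slco1a4 at E18.5 (0.0709 ± 0.0247, n = 6) and Foxq1, a transcription factor, at 7 weeks (0.587 ± 0.135 CPM per kb, n = 5).

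At E18.5 the comparison asks whether vessel genes differed in brain under copper chelation before birth. Genes of the basement membrane and several endothelial genes were at slightly higher levels in TETA, by 1.13- to 1.31-fold for those named first below, while 7 of the 10 barrier genes tested had a negative log2 fold change. A further list of barrier transporter and junction genes, described below, had 17 of 28 positive values with a median of 0.03. In edgeR (quasi-likelihood, Benjamini-Hochberg adjusted), 0 of the 38 members tested passed 0.05, as did 0 of 13794 genes (0%). At an unadjusted p under 0.05 there were 12 members, 11 higher and 1 lower, against 4.78% of all genes (2.31% higher, 2.47% lower). Log2 fold changes were positive for 23 of 38 members, against 48.2% of all genes. DESeq2 and limma voom with library weights each called 2 members, Kdr and Vwf. Slco1a4 was too low to be tested at this stage, at 0.473 ± 0.165 CPM in control libraries (SD, n = 6).

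All 3 basement membrane genes were above control. Nid2, a nidogen, which links laminin to collagen IV, ran from 12.7 through a median of 14.0 to 14.7 CPM in control and from 15.9 through 16.4 to 17.5 CPM in TETA, so that every TETA library was above every control library. Its log2 fold change was 0.25 ± 0.053 (SE, n = 6 and 6). Lama4, the laminin chain typical of endothelial basement membrane, ran from 18.6 through 20.9 to 22.8 CPM in control and from 23.2 through 24.5 to 26.1 CPM in TETA. These groups did not overlap either, and the log2 fold change was 0.23 ± 0.053. Nid1 ran from 29.9 through 32.7 to 36.0 CPM in control and from 35.2 through 36.2 to 39.4 CPM in TETA. For Nid1 the highest control library reached into the TETA range, and the log2 fold change was 0.17 ± 0.054.

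Among the receptors, Kdr ran from 34.7 through 35.9 to 40.0 CPM in control and from 39.05 through 44.0 to 46.3 CPM in TETA. Only the highest control library, 2-2, lay above the lowest TETA library, 1-2, and the log2 fold change was 0.25 ± 0.051. Flt1, a VEGF receptor that also acts as a decoy for the ligand, ran from 29.2 through 33.1 to 37.1 CPM in control and from 37.4 through 38.1 to 40.4 CPM in TETA. The groups did not overlap and the log2 fold change was 0.22 ± 0.052. Ptprb, the endothelial phosphatase that restrains the angiopoietin receptor, had a log2 fold change of 0.27 ± 0.064 with 1 control library, 2-1, above the lowest TETA library. Tek, that receptor itself, was at 11.2 ± 0.513 CPM in control (SD, n = 6) and 10.9 ± 1.47 CPM in TETA (SD, n = 6), a log2 difference of -0.03 ± 0.078. Eng, a co-receptor for TGF-beta family ligands, had a log2 fold change of 0.20 ± 0.079 with overlapping groups.

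**Figure D1:**
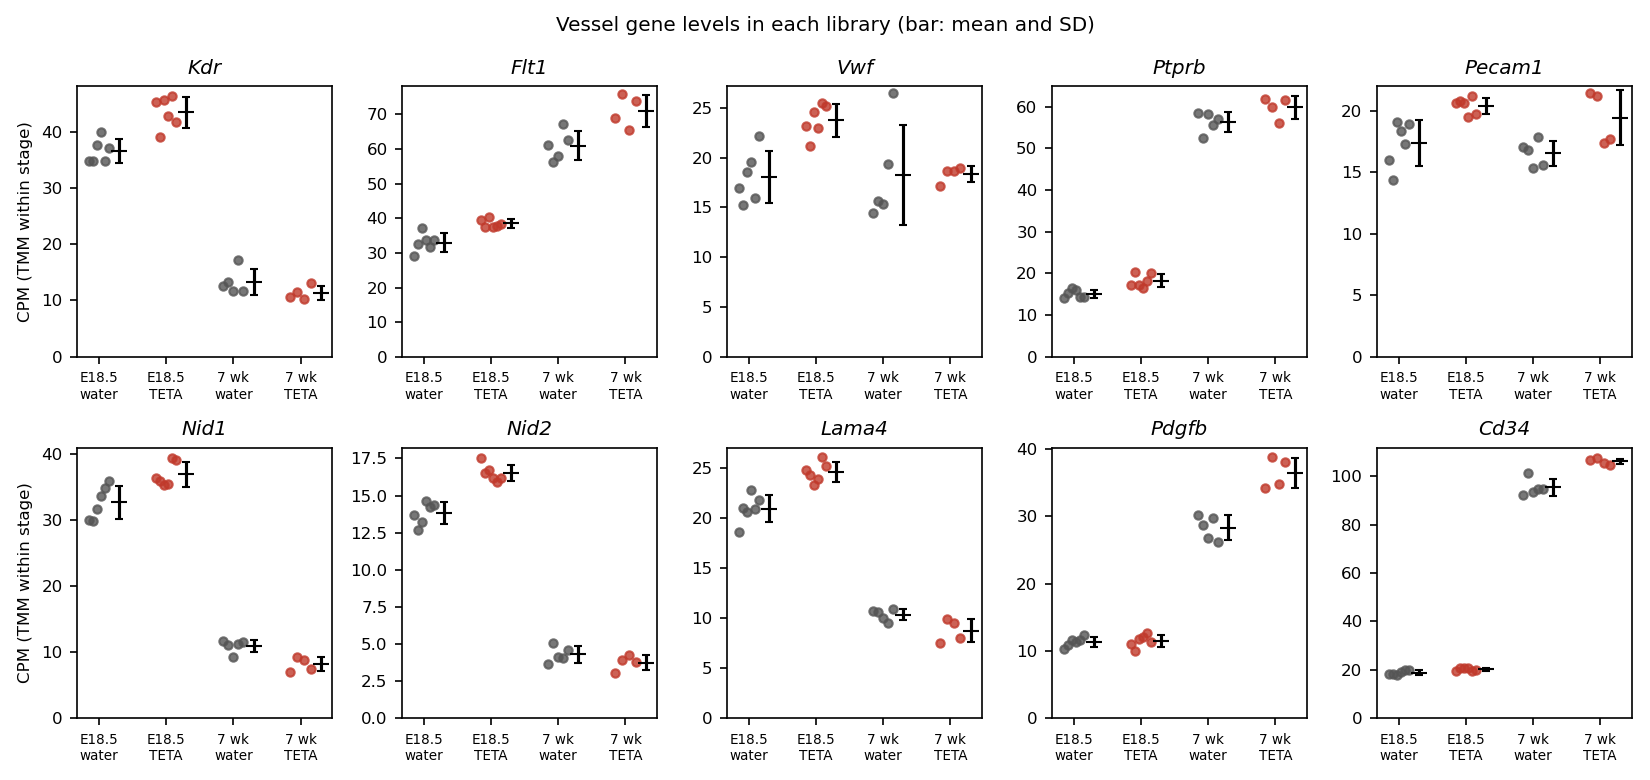
Level of 10 vessel genes in each library (vertical axis, CPM scaled by TMM within a stage, starting at 0), with the mean and SD beside each group's points. At E18.5 the TETA points of Flt1, Pecam1, Nid2 and Lama4 all lie above the control points, and at 7 weeks those of Pdgfb and Cd34 lie above and those of Nid1 below.

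The largest fold change among the 38 members tested at E18.5 was that of Vwf (von Willebrand factor, the clotting protein that endothelial cells store). It ran from 15.2 through 17.8 to 22.2 CPM in control and from 21.2 through 23.9 to 25.5 CPM in TETA, and its log2 fold change was 0.39 ± 0.076. Control library 3-2, at 22.2 CPM, was the only control library inside the TETA range. Pecam1, an adhesion molecule at endothelial contacts, ran from 14.4 through 17.9 to 19.1 CPM in control and from 19.5 through 20.6 to 21.2 CPM in TETA, without overlap, at 0.22 ± 0.062. Flt1, Pecam1, Nid2 and Lama4 were the 4 members without overlap, against 0.312% of all genes. Other general endothelial markers were closer to control. Cdh5, the cadherin of endothelial junctions, had a log2 difference of 0.09 ± 0.082 and Emcn, a surface mucin, 0.04 ± 0.097.

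Barrier genes at E18.5 had log2 differences from -0.21 to 0.11. Cldn5 ran from 36.5 through 40.7 to 42.4 CPM in control and from 35.2 through 38.5 to 42.0 CPM in TETA, a log2 difference of -0.07 ± 0.052. Mfsd2a, a lipid transporter that holds vesicle transport low, was at 28.5 ± 1.41 and 29.9 ± 1.18 CPM (SD, n = 6 and 6), and Slco1c1, a thyroid hormone transporter, at 44.6 ± 3.15 and 41.6 ± 3.14 CPM. Ocln, the tight junction protein occludin, was the member with the lowest log2 fold change, -0.21 ± 0.084, with 6.38 ± 0.670 CPM in control libraries and 5.56 ± 0.353 CPM in TETA libraries (SD, n = 6 and 6). Of the pericyte genes, Vtn had a log2 fold change of 0.24 ± 0.078, or 0.16 without TETA 3-2, its highest library, and Pdgfrb, the PDGF receptor of pericytes, 0.16 ± 0.067, while Rgs5 was at 0.00 ± 0.042. With the level of Y-linked genes as a covariate, Kdr was at 0.24 and Vwf at 0.36.

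Barrier and angiogenic genes were then set side by side. At E18.5 the median log2 fold change was -0.03 over 10 barrier genes and 0.02 over 14 angiogenic genes, beside 0.00 over all genes tested. With 1 library left out at a time, the barrier minus angiogenic median was -0.083 to 0.003 at E18.5 and -0.0865 to -0.0135 at 7 weeks. In each library, the median of the 11 barrier genes minus that of the 14 angiogenic genes (log2 CPM, each gene centred over the libraries of its stage) ran from -0.04 to 0.20 in control and from -0.16 to 0.00 in TETA. The groups overlapped. The top of the control range came from libraries 1-1 and 1-2, at 0.09 and 0.20, with the other 4 at -0.04 to 0.03. These 2 libraries had the fewest counts at E18.5 (15131081 and 14678265) and the lowest angiogenic medians, both -0.12. At 7 weeks the medians were 0.00 over barrier and 0.05 over angiogenic genes, and the difference per library ran from -0.03 to 0.14 in control and from -0.12 to 0.02 in TETA. The ranges overlapped here as well. The 3 basement membrane genes, taken the same way, ran from -0.21 to -0.04 in E18.5 control and from 0.04 to 0.18 in TETA libraries. Control 1-1 and 1-2 were lowest here too, both at -0.21, and the other 4 control libraries, at -0.14 to -0.04, were still below every TETA library. At 7 weeks their order was the other way, with control from 0.01 to 0.20 and TETA from -0.39 to -0.01.

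At 7 weeks, 4 of the 39 members passed the adjusted threshold, against 9.96% of the 14240 genes tested. Pdgfb, Flt1 and Cd34, all angiogenic genes, rose in TETA, against 5.67% of all genes, and Nid1 fell, against 4.28%. None of the 11 barrier genes passed, and 0 of them were under an unadjusted 0.05 in edgeR. The further list of barrier transporter and junction genes, described below, had 5 higher and 2 lower called among 28 tested. Over all members, 12 were under an unadjusted 0.05, 8 higher and 4 lower, against 24% of all genes (12.9% higher, 11.1% lower). DESeq2 also called 4 members. Of all genes called at this stage, 56.98% were higher in TETA, and 67.6% without TMM scaling.

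Pdgfb, the ligand by which endothelial cells recruit pericytes, was at 30.2, 28.7, 26.7, 29.7 and 26.1 CPM in control libraries 1 to 5 and at 34.1, 38.7, 34.8 and 38.0 CPM in TETA libraries 1 to 4. All TETA libraries were above all control libraries, and the rise was 1.28-fold (log2 0.36 ± 0.056, edgeR adjusted p = 0.000292). Flt1 was at 61.1, 56.3, 57.9, 67.2 and 62.7 CPM in control and at 68.9, 75.9, 65.4 and 73.8 CPM in TETA. Control library 4 lay above TETA library 3, and the rise was 1.16-fold (log2 0.22 ± 0.052, edgeR adjusted p = 0.0105). Cd34, a sialomucin of the luminal surface, was at 92.4, 101, 93.6, 94.9 and 94.8 CPM in control and at 107, 107, 106 and 105 CPM in TETA. The groups did not overlap, and the rise was small, 1.11-fold (log2 0.15 ± 0.035, edgeR adjusted p = 0.00829).

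Nid1 was at 11.6, 11.03, 9.34, 11.2 and 11.5 CPM in control and at 7.04, 9.31, 8.86 and 7.50 CPM in TETA. Every TETA library was below every control library, the nearest pair being control 3 and TETA 2, and Nid1 fell to 0.743 of its control level (log2 -0.43 ± 0.094, edgeR adjusted p = 0.00543). Nid2 was at 3.66, 5.07, 4.13, 4.04 and 4.59 CPM in control and at 3.05, 3.90, 4.26 and 3.80 CPM in TETA, overlapping groups with a log2 difference of -0.20 ± 0.133 (edgeR adjusted p = 0.385). Without control 2 the Nid2 difference was -0.13, and without TETA 1 it was -0.11. Lama4 was at 10.7, 10.6, 10.04, 9.50 and 10.9 CPM in control and at 7.52, 9.92, 9.50 and 8.03 CPM in TETA, at -0.25 ± 0.089 (edgeR adjusted p = 0.0837). TETA libraries 2 and 3 reached the lowest control library for Lama4. Markers of meningeal fibroblasts, which also make matrix, moved the same way: 8 genes summed to 117 to 129 CPM in control and 93.6 to 108 CPM in TETA, without overlap. Of these, Col1a1, Col1a2, Slc6a13 and Pdgfra passed the test as lower, beside 4.28% of all genes. Pdgfra is not particular to fibroblasts, so the sum need not be theirs alone. In this list 0 of the 8 were at 0 in all libraries of a group, and the E18.5 sums overlapped at 63.7 to 75.7 and 61.8 to 85.7 CPM. The part of these markers in the fall of Nid1 was not tested.

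Striatal markers also separated the 7-week groups completely, so dissected region and treatment cannot be told apart in these libraries. With the striatal level as a covariate, 1 gene in all and 0 members were called. Pdgfb was then at 0.54 ± 0.199, Flt1 at 0.47 ± 0.180, Cd34 at 0.10 ± 0.130 and Nid1 at -0.72 ± 0.335 (log2 ± SE), with an edgeR adjusted p from 0.864 to 0.996, and the SE of Cd34 exceeded its value. Other members moved widely under this covariate, none past the test: Cldn5 from -0.02 to 0.72, Vwf from 0.00 to -0.69, Pdgfrb from -0.11 to 0.31, Slco1c1 from 0.01 to -0.17, Plvap from 0.03 to 0.57 and Nid2 from -0.20 to -1.11. Choroid plexus markers summed to 4.08 to 60.4 CPM in the control libraries and 2.98 to 6.02 CPM in TETA, with medians of 4.40 and 4.88 CPM. Leaving out any 1 library at 7 weeks called 4 to 6 members.

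Members short of the threshold at 7 weeks pointed several ways. Anpep, an aminopeptidase of the pericyte surface, was at 4.93, 4.95, 5.48, 4.44 and 5.71 CPM in control and at 3.69, 3.51, 4.30 and 4.23 CPM in TETA, without overlap, with a log2 difference of -0.37 ± 0.117 (edgeR adjusted p = 0.0502). Pecam1 was at 17.0, 16.8, 15.4, 17.9 and 15.6 CPM in control and at 21.5, 21.2, 17.4 and 17.7 CPM in TETA. TETA libraries 1 and 2 stood above the others, and the log2 difference was 0.23 ± 0.074 (edgeR adjusted p = 0.0531). Abcc9, a subunit of the pericyte ATP-sensitive potassium channel, had higher values in all 4 TETA libraries, at 11.8 to 13.3 CPM against 9.82 to 11.5 CPM, with an edgeR adjusted p of 0.143. Pdgfb, Cd34, Abcc9, Anpep and Nid1 were the 5 members whose groups did not overlap, against 11.2% of all genes. Kdr was at 12.6, 13.3, 11.7, 17.2 and 11.8 CPM in control and at 10.7, 11.5, 10.2 and 13.1 CPM in TETA, at -0.23 ± 0.104 (edgeR adjusted p = 0.181). For Kdr, control library 4 stood above the rest, and without it the log2 difference was -0.13.

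Vwf, the member furthest from control at E18.5, was at 14.5, 15.6, 15.4, 19.3 and 26.5 CPM in control and 17.2, 18.7, 18.7 and 18.9 CPM in TETA at 7 weeks. The TETA libraries lay inside the control range and the log2 difference was 0.00 ± 0.127. Without control 5, the highest library, it was 0.18 (edgeR adjusted p = 0.160). Cldn5 was at 22.6 ± 2.42 and 22.3 ± 3.60 CPM, Mfsd2a at 27.6 ± 2.97 and 26.8 ± 4.71 CPM and Slco1c1 at 58.1 ± 4.17 and 58.4 ± 5.47 CPM (SD, n = 5 and 4). The 11 barrier genes had log2 differences from -0.06 to 0.08 at this stage and the 14 angiogenic genes from -0.23 to 0.36, and under the striatal covariate the barrier gene Cldn5 lay outside its list's range, at 0.72. Tek was at 13.4 ± 0.699 and 14.98 ± 1.27 CPM, and Plvap, the protein of fenestral diaphragms that barrier vessels hold low, at 7.16 ± 0.473 and 7.34 ± 1.06 CPM. Pdgfrb was at 23.5 ± 0.996 and 21.8 ± 1.42 CPM, and neither it, Tek nor Plvap passed the test.

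Whether the TETA difference itself changed with stage was tested as an interaction over all 21 libraries. It contains the E18.5 difference that was known when the genes were chosen, so it describes the pattern and adds no independent support. It also contains the 7-week difference, in which dissected region and treatment cannot be told apart. Of 12 striatal markers, 11 passed this test as well, all negative, beside 1.43% of all genes. Of the 39 members, 5 passed, against 3.1% of 14660 genes, with 1 positive difference (1.67% of all genes) and 4 negative (1.43%). Nid1 differed most, by -0.61 ± 0.103 (log2, 7 weeks minus E18.5, edgeR adjusted p = 0.000497), followed by Lama4 at -0.49 ± 0.097 (edgeR adjusted p = 0.00277), Kdr at -0.49 ± 0.114 (edgeR adjusted p = 0.013) and Nid2 at -0.47 ± 0.123 (edgeR adjusted p = 0.0268). The log2 fold changes of all 3 basement membrane members and of Kdr were positive at E18.5 and negative at 7 weeks, where Nid1 alone of the 4 passed by itself. With the striatal level as a covariate, the 7-week value was 0.01 for Kdr, -0.72 for Nid1 and -1.11 for Nid2, none past the test. The interaction was not fitted with this covariate. The meningeal fibroblast markers moved the same way in this comparison, with 8 of 8 negative, beside 7675 of all 14660 genes, though 0 of the 8 passed. Their median was -0.44, beside -0.49 for the 3 basement membrane members. Lum and Slc6a13, 2 of the 8, were too low to be tested at E18.5, so their values here rest on few E18.5 counts. The part of these markers in the differences was not tested. Pdgfb differed the other way, by 0.34 ± 0.088 (edgeR adjusted p = 0.0239), with a log2 difference of 0.01 ± 0.066 at E18.5 and the rise given above at 7 weeks.

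Single libraries decided 3 of these calls. The edgeR adjusted p of Nid2 became 0.0823 without 7-week control 2 and 0.0989 without TETA 1, that of Pdgfb 0.0586 without 7-week TETA 2 and 0.0551 without TETA 4, and that of Kdr 0.0551 without 7-week TETA 3. Nid1 and Lama4 passed under all 28 other settings run for this comparison. For Flt1 (-0.01 ± 0.077) and Pecam1 (0.00 ± 0.099) the difference between the stages was near 0, with each gene about 0.22 above control at E18.5 and 0.22 and 0.23 above it at 7 weeks. Over all genes, 54.0% of the interaction calls were positive, and 72.0% without TMM scaling.

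**Figure D2:**
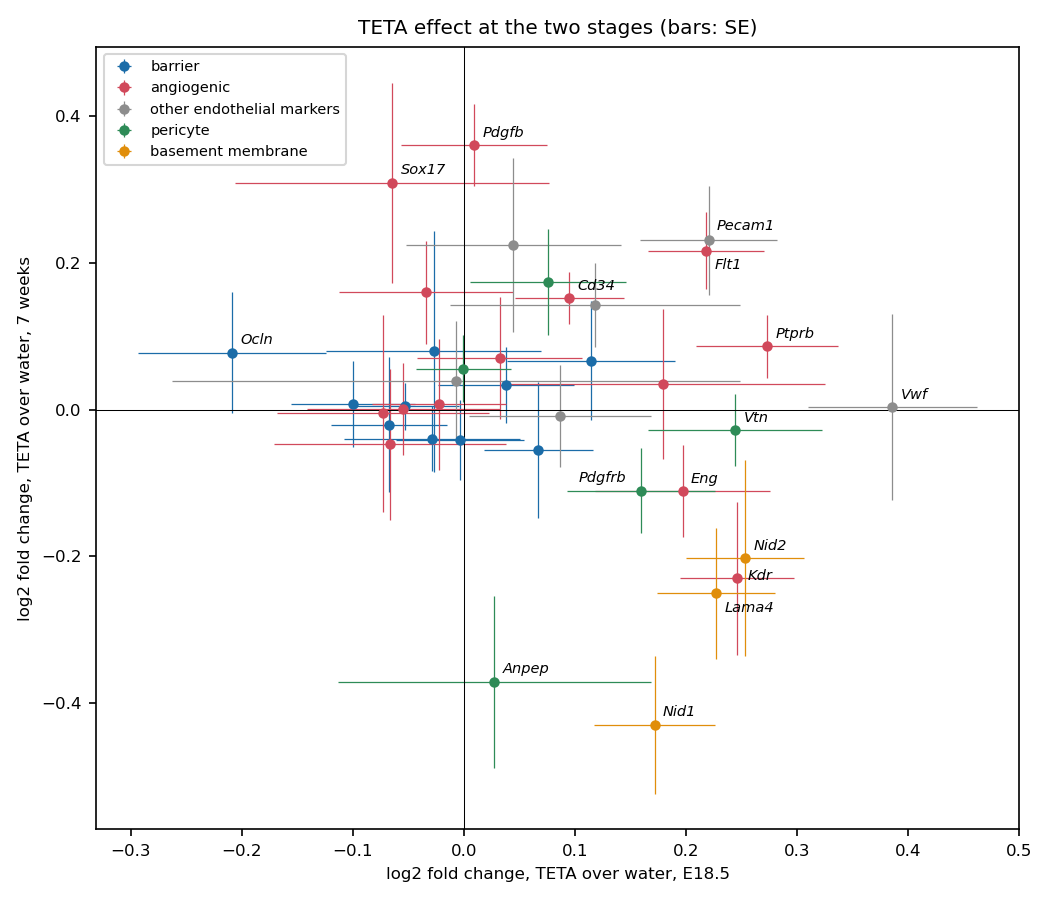
Log2 fold change of TETA over water at E18.5 (horizontal) and at 7 weeks (vertical) for the 38 members tested at both stages, with standard errors as bars and colours for the gene groups. Nid1, Nid2, Lama4 and Kdr lie at the lower right (above control at E18.5, below it at 7 weeks), Flt1 and Pecam1 at the upper right, and the barrier genes near 0 on the vertical axis.

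Other genes of the vessel wall were taken from 5 lists that complete the pathways of the 39 genes. They held 107 testable genes at 7 weeks, of which 12 rose and 7 fell in TETA, a share to be read beside the 9.96% of all genes. At E18.5, 0 of 107 passed in edgeR and 1 in DESeq2, and 18 had an unadjusted p under 0.05 (15 higher, 3 lower), against 4.78% of all genes.

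Among 18 further basement membrane genes, 17 had a positive log2 fold change at E18.5, beside 48.2% of all genes. None passed the threshold, and 6 had an unadjusted p under 0.05, all higher, beside 2.31% of all genes. The median over the 18 was 0.08, beside 0.00 for all genes. At 7 weeks 2 rose and 4 fell, beside 5.67% and 4.28% of all genes. The collagen IV chains Col4a2 (0.33 ± 0.054, edgeR adjusted p = 0.000477) and Col4a1 (0.31 ± 0.055, edgeR adjusted p = 0.00123), which form the network itself, rose. Sparc (-0.29 ± 0.041, edgeR adjusted p = 0.000131), a collagen-binding matrix protein, and Fn1 (-0.34 ± 0.055, edgeR adjusted p = 0.00047), fibronectin, fell together with the laminin chain Lamb1 and the integrin Itgb1. Sparc, Lamb1 and Fn1 also passed as differing between the stages, at -0.32, -0.44 and -0.46 (3 of 18, beside 3.1% of all genes). In the other 4 lists the genes that passed this test were Klf2 (0.76), Acvrl1 (-0.54), Apcdd1 (-0.35) and Ctnnb1 (-0.17).

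**Figure D3:**
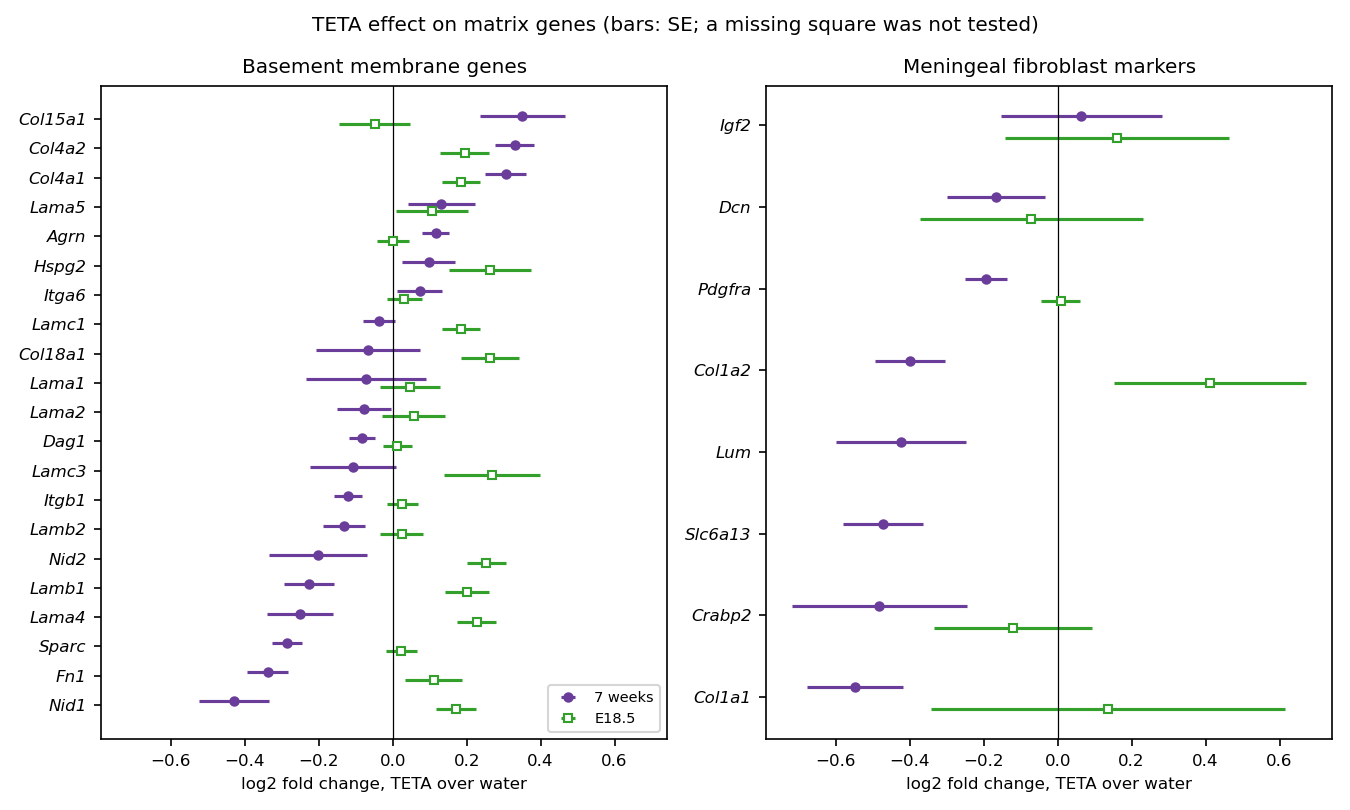
Log2 fold change of TETA over water (horizontal) with standard errors for 21 basement membrane genes (left) and 8 meningeal fibroblast markers (right), at 7 weeks (filled circles) and E18.5 (open squares). Nid1 is the lowest basement membrane gene at 7 weeks and Col4a1 and Col4a2 stand to the right of 0 at both stages, while 7 of the 8 fibroblast markers lie left of 0 at 7 weeks.

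Of 27 tested genes of VEGF, angiopoietin, apelin and Notch signalling, 4 rose and 0 fell at 7 weeks by edgeR, beside 5.67% and 4.28% of all genes, and at an unadjusted p under 0.05 there were 6 higher and 3 lower, beside 12.9% and 11.1% of all genes. Klf2, a transcription factor induced by blood flow, rose most (0.66 ± 0.085, edgeR adjusted p = 4.01e-05), with Notch4, a Notch receptor of endothelium (0.36 ± 0.099, edgeR adjusted p = 0.0252), and Vegfa, the ligand of Kdr and Flt1 (0.24 ± 0.070, edgeR adjusted p = 0.029). Vegfa rose at 7 weeks from 66.9 ± 8.19 to 79.2 ± 6.53 CPM (SD, n = 5 and 4), and its E18.5 levels were 86.9 ± 6.73 in control and 100.4 ± 5.52 CPM in TETA libraries (SD, n = 6 and 6). Of 18 Wnt and norrin genes 2 passed, a share near the 9.96% of all genes. Fzd4, the receptor for norrin, rose (0.31 ± 0.070, edgeR adjusted p = 0.00718) and Apcdd1, a Wnt inhibitor and target, fell (-0.35 ± 0.055, edgeR adjusted p = 0.000327). Of 28 further barrier transporter and junction genes, 5 rose and 2 fell, beside 5.67% and 4.28% of all genes. At an unadjusted p under 0.05 there were 12, 8 higher and 4 lower, beside 24% of all genes. The called ones included Slc2a1, the glucose transporter of the barrier (0.35 ± 0.079, edgeR adjusted p = 0.00662), Slc19a3, a thiamine transporter (0.70 ± 0.150, edgeR adjusted p = 0.00478), and, among those that fell, Ctnnb1, beta-catenin (-0.15 ± 0.029, edgeR adjusted p = 0.00261). Of 16 further pericyte and smooth muscle genes none passed by edgeR at 7 weeks, and 7 had an unadjusted p under 0.05, 2 higher and 5 lower, beside 24% of all genes.

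Levels were also compared between the stages, which was not part of how the genes were chosen. The 7-week and E18.5 control libraries were fitted together from raw counts, and a gene was called at an edgeR adjusted p under 0.05 with a log2 difference beyond 1. Stage, dissected region and sequencing table cannot be told apart here. The sexes may differ as well, as Y-linked genes were under 1 CPM in 2 of 6 E18.5 and 0 of 5 7-week control libraries. The part of sex was not tested. Of 39 members, 15 were called, 12 higher and 3 lower at 7 weeks, against 40.6% of all 14375 genes (22.8% higher, 17.8% lower). Without the fold threshold 32 members passed, against 89.5% of all genes. Groups did not overlap for 28 members, against 80.2%. Markers of other cells differed too. Called higher were 6 of 6 of microglia and macrophages, 5 of 6 of astrocytes, 3 of 6 of oligodendrocytes and 5 of 8 of meningeal fibroblasts. Of red blood cells 5 of 5 were called lower, and markers of neurons, striatum, cortex and choroid plexus went both ways. The part of these cells in the vessel gene levels was not tested.

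Slco1a4, Ly6a, Ly6c1 and Cd34 rose most. Slco1a4, an organic anion transporter, went from 0.455 ± 0.159 CPM at E18.5 to 50.4 ± 1.16 CPM at 7 weeks on a scale common to both stages (SD, n = 6 and 5), a log2 difference of 6.76 ± 0.097, and it passed the filter on low counts only through the 7-week libraries. Ly6a rose by 4.39 ± 0.153 and Ly6c1 by 3.30 ± 0.087 on the log2 scale. Both are small anchored surface proteins of a family of near copies, so their counts are uncertain where reads were shared. Cd34 rose from 18.2 ± 0.831 to 100.8 ± 3.68 CPM (log2 2.47 ± 0.045), and Abcb1a, the efflux pump P-glycoprotein, by 2.13 ± 0.052. For Abcb1a the same caution holds. Vtn and Ptprb rose by 2.08 ± 0.058 and 2.04 ± 0.052. Smaller rises past the threshold were those of Plvap (1.76), Pdgfb (1.45), Egfl7 (1.28), Anpep (1.22) and Flt1 (1.02). The rise of Flt1 was 0.87 without TMM scaling and 0.99 without E18.5 control 1-1 or without 7-week control 4, under the fold threshold each time.

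The falls were Nid2 (-1.54 ± 0.084), Nid1 (-1.44 ± 0.066) and Kdr (-1.32 ± 0.077). Nid2 went from 13.3 ± 0.715 to 4.54 ± 0.577 CPM, Nid1 from 31.4 ± 2.42 to 11.6 ± 0.988 CPM and Kdr from 35.1 ± 2.095 to 14.1 ± 2.41 CPM (SD, n = 6 and 5). The VEGF receptors thus moved in opposite directions, with Kdr down and Flt1 up. Ets1 (-0.92 ± 0.068), Abcc9 (-0.91 ± 0.061), Foxq1 (-0.88 ± 0.135), Lama4 (-0.88 ± 0.063) and Cldn5 (-0.69 ± 0.061) were also lower, short of the fold threshold. Rgs5 (0.01 ± 0.046) and Tie1 (0.00 ± 0.083) were level, and general markers such as Cdh5 (-0.11 ± 0.072) and Pecam1 (0.06 ± 0.069) were close to level. Without TMM scaling the median of all genes moved by -0.15 on the log2 scale, and the sign turned for Mfsd2a, Sox18, Pecam1, Vwf and Rgs5. Of all genes called between the stages, 56.2% were higher at 7 weeks, and 48.7% without TMM scaling.

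Barrier and angiogenic genes did not part by stage, with medians of 0.53 over 11 and 0.54 over 14 genes beside -0.02 over all genes. Each group held both directions. Among barrier genes, Abcb1a, Itm2a (0.94 ± 0.058) and Tjp1 (0.67 ± 0.043), a scaffold of tight junctions, were higher while Cldn5 and Foxq1 were lower. The TETA libraries gave the same comparison a repeat in other libraries. Their barrier minus angiogenic median was -0.13, beside -0.01 in control libraries. The TETA libraries called 15 members, against 39.8% of all genes. Of the 15 members called in the control libraries 14 were shared, beside 92.6% of all genes so called, and 35 of 39 signs were the same, beside 96.0% of all genes. Anpep was called in control libraries alone and Lama4 in TETA libraries alone (-1.36 ± 0.075). The largest gap between the fits was 0.61 on the log2 scale, for Nid1, which fell by 1.44 in control and by 2.05 in TETA libraries.

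**Figure D4:**
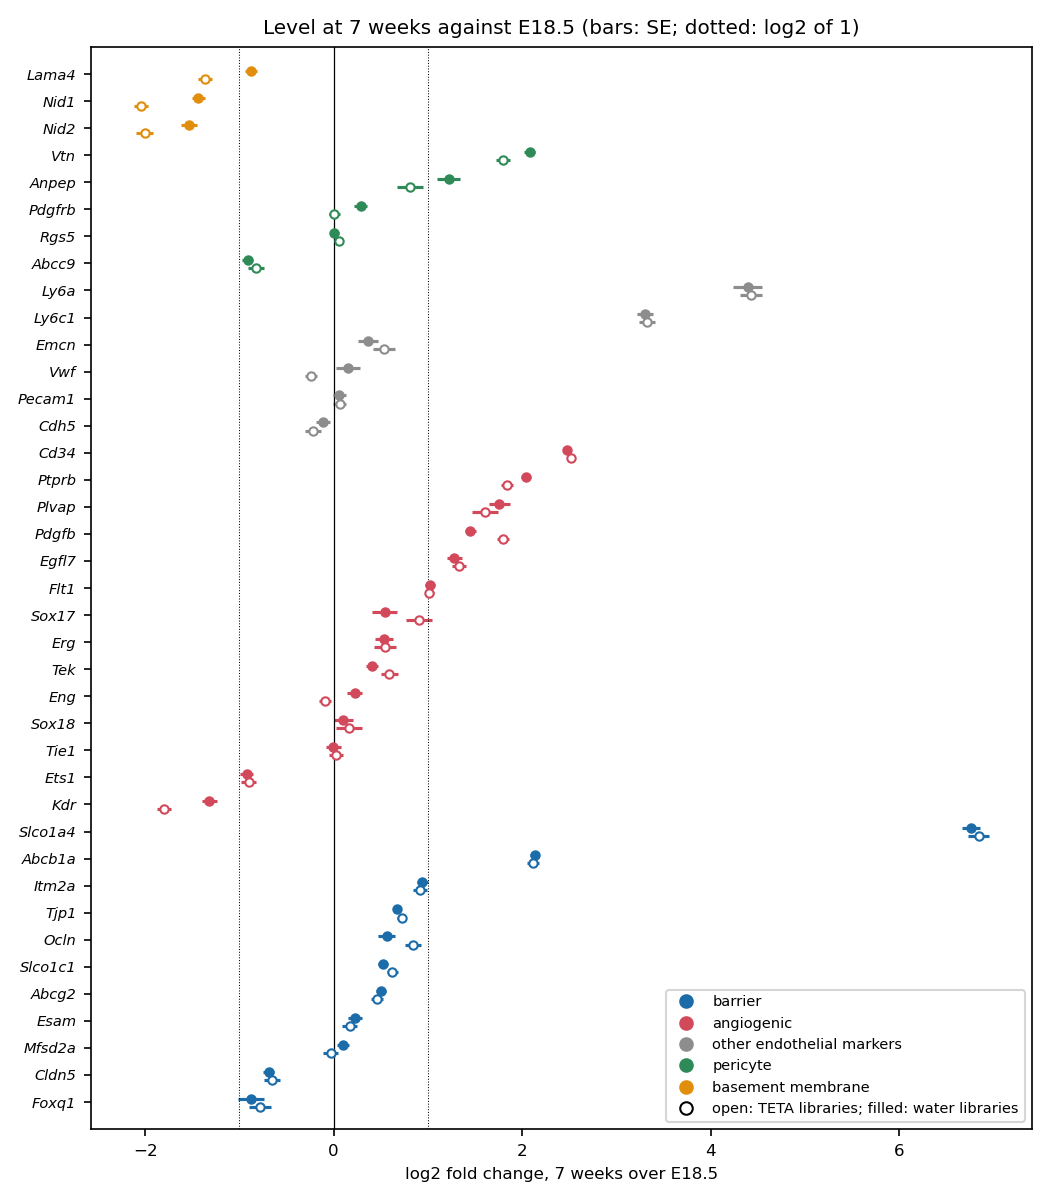
Log2 difference between 7 weeks and E18.5 (horizontal) for the 39 members by group, with standard errors, in control libraries (filled) and in TETA libraries (open), and dotted lines at a log2 of 1 in either direction. Slco1a4 lies furthest right at 6.76, the basement membrane genes and Kdr lie left of 0, and the open points of Nid1, Nid2, Lama4 and Kdr lie further left than the filled ones.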

How the data were processed

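RNA of 21 mouse brain libraries (stranded poly(A) libraries, per the labels' protocols) was measured. For each stage the authors deposited a table of raw read counts, with gene symbols as rows and libraries as columns, per the file headers. The submitters' processing notes name STAR 2.7.1a, featureCounts 2.0.1 and mm10; their settings, including strand and shared reads, are not given in the sources used here, so counts of near copies (Ly6a, Ly6c1, Abcb1a) and of overlapping or antisense genes are uncertain. E18.5 genes at 0 in control library 1-1 were divided by 11, as their counts in the other libraries were all multiples of 11.

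Genes were kept by filterByExpr (minimum count 10) and scaled by TMM. TETA was compared with control within each stage by edgeR 4.0.16 (quasi-likelihood, adjusted p under 0.05 over all genes), in R 4.3.3 with limma 3.58.1 and DESeq2 1.42.0 for alternatives. The stage comparison and the interaction were fitted on the raw counts of both tables together. SE is the log2 fold change over the root of F. On simulated data with 200 genes changed by a log2 of 0.25, 55.0% were recovered at E18.5 and 50.5% at 7 weeks, and of genes changed by 0.5, 89.5% and 79.5%. The adjusted threshold depends on how many genes change, and 0 passed at E18.5 in the real libraries, so these shares need not hold there.

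The members, lists, roles and tests were chosen with earlier results of these data known. Genes named are 10 fixed ones, members with an unadjusted p under 0.01 at a stage, the 4 largest stage rises, all stage falls called, and up to 3 genes per pathway list and comparison with the smallest p among those called. Any other gene named was chosen after its values were seen. Alternatives tried were other filters and scaling, DESeq2, voom with library weights, undivided counts, a replicate block, summed libraries, marker covariates and leaving out each library. Replicate numbers shared by the groups did not pair the libraries.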

Additional observations from a re-analysis of the deposited data

Results flagged for a closer look

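The TETA effect differed between the stages for 5 members in the edgeR interaction test: Nid1 (-0.61), Lama4 (-0.49), Kdr (-0.49), Nid2 (-0.47) and Pdgfb (0.34, all log2, 7 weeks minus E18.5), with both stages' values in the report. At 7 weeks, dissected region and treatment cannot be told apart. Within groups, 1 library stood apart from the others for 4 members, by the gap to its nearest neighbour as a share of the group's range. Cd34 was at 101 CPM in 7-week control 2, with the other control libraries at 92.4 to 94.9 CPM (share 0.717). Vwf was at 17.2 CPM in 7-week TETA 1, against 18.7 to 18.9 CPM (0.865). Vtn was at 20.1 CPM in E18.5 TETA 3-2, against 14.0 to 16.1 CPM (0.652), and its log2 fold change was 0.16 without that library. Nid1 was at 9.34 CPM in 7-week control 3, against 11.03 to 11.6 CPM (0.734). These were 4 of 84 groups examined, where about 4.2 (1 in 20) would stand apart by chance.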

How the results depend on the processing

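No member followed through the alternatives changed sign in a comparison it had passed in edgeR. This does not cover the pathway genes, nor the stage calls of Abcb1a, Vtn, Ptprb, Pdgfb, Egfl7 and Anpep. Signs did turn where a member had not passed, as for Kdr at 7 weeks with the striatal covariate (0.01) and for Vwf at 7 weeks under 7 alternatives. At E18.5, where edgeR called 0 genes, DESeq2 called 10 (2 members, 1 pathway gene), voom with library weights 8 (2 and 1), libraries summed by their first number 2, and leaving out both libraries numbered 1-2, chosen after seeing the data, 7 (1 and 1). Leaving out each library in turn called 0 to 7 genes (0 to 2 members, 0 to 1 pathway genes): 7 genes with Kdr and Vwf without TETA 1-2, and 3 with Vwf without control 3-2. The cause was not tested.

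At 7 weeks the striatal covariate left 1 gene, 0 members and 0 pathway genes, and moved the barrier minus angiogenic median to -0.38. Leaving out each library called 927 (without TETA 3) to 1392 genes, 4 to 6 members and 12 (without control 3) to 17 pathway genes. Pdgfb, Flt1, Cd34 and Nid1 each passed in 15 of 16 alternatives. Pecam1 also passed in 5 and Anpep in 2.

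Between stages, dropping the fold threshold called 12871 genes, 32 members and 100 pathway genes, and the TETA libraries gave a barrier minus angiogenic median of -0.13. For the interaction, voom called 696 genes, and leaving out each library 290 (without 7-week TETA 3) to 622. Depth limits Slco1a4 and Ly6a at E18.5, both under 1 CPM on average.

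Replicate numbers shared by control and TETA did not pair the libraries: same-numbered libraries had a mean correlation of 0.02 (-0.28 to 0.28) at E18.5 and -0.05 (-0.07 to -0.03) at 7 weeks. A replicate block called 0 genes at E18.5 and 1063 genes with 4 members at 7 weeks, and changed no call among the named members. The block was not run for the interaction or between stages.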
